A study of Rattus norvegicus with 42 samples.

Results

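Genes of the tumor necrosis factor (TNF) superfamily, the ligands and receptors named Tnfsf and Tnfrsf together with Fas, Faslg, Cd40, Cd40lg, Lta, Ltb and Ltbr, were examined in whole blood of rats with and without stroke and tissue plasminogen activator (tPA). Members were taken by gene symbol from the probe annotation, and a gene with several probe sets was represented by the probe set of highest mean signal. This gave 27 of 14217 measured genes, 10 ligands and 17 receptors, from 33 probe sets. The 42 animals were male Sprague-Dawley rats of 280 to 350 g, 6 in each of 7 groups, and blood was drawn at 24 h under isoflurane. The naive group (labelled normal) and the anesthesia group had neither MCAO nor tPA. Middle cerebral artery occlusion (MCAO), a suture model of ischemic stroke, lasted 2 h in reperfused-MCAO and 24 h in permanent-MCAO, and each was studied without tPA and with 3.3 mg/kg recombinant human tPA given at 3 h. The remaining group received tPA at 3 h without MCAO, and the methods do not state whether these rats were anesthetized at that time. No group is named as sham-operated, so MCAO and the operation itself cannot be told apart.

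TNF superfamily ligands are mostly trimeric proteins of the cell surface that can be shed, and their receptors pass the signal on through adaptor proteins. Death domain receptors, such as Tnfrsf1a and Fas, bind adaptors that can lead either to cell death or to NF-kB activation, while the remaining signaling receptors bind TRAF proteins and mainly activate NF-kB. In blood, T cells, B cells, natural killer (NK) cells and monocytes use these pairs to signal to each other.

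Promoters are shown for 2 pairs of close members, taken after the values were seen, in which both members were called in the same comparison. Other members lie as close and were not called together. These are Tnfsf13 and Tnfsf12, and Tnfrsf1b and Tnfrsf8, with 0 protein-coding genes between them, and Tnfsf4 and Faslg, with 1. Tnfrsf1a, the main TNF receptor, and Ltbr, the lymphotoxin beta receptor, lie on chromosome 4 with 1 protein-coding gene, Scnn1a, between them, and both were called higher in reperfused-MCAO. Lta and Ltb, the lymphotoxin ligands that Ltbr recognizes as a complex, lie on chromosome 20 on either side of Tnf, and both were called higher with tPA in rats without MCAO. The sequences are from RefSeq (GRCr8, which served here for sequences, gene names and gene order), each 300 bases on the strand of the gene, 5′ to 3′, from 250 bases before the start site to 50 bases after it. Capitals mark matches on either strand to the NF-kB consensus, the GC box GGGCGG, the ETS motif CCGGAAG and the TATA box TATAAA.
Tnfrsf1a (chr4:159836869-159837168, plus strand): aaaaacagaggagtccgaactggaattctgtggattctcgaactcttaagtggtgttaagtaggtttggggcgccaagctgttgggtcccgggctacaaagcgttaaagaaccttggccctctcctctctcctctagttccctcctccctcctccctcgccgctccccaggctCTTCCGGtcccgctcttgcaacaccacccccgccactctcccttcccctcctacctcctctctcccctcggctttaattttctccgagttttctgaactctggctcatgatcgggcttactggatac
Ltbr (chr4:159801467-159801766, minus strand): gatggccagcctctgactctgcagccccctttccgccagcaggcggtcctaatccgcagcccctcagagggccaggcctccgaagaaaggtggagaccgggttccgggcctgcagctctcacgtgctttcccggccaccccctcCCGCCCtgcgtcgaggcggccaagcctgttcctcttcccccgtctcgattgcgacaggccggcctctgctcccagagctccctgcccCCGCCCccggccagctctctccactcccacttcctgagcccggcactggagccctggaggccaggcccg
Lta (chr20:3623277-3623576, plus strand): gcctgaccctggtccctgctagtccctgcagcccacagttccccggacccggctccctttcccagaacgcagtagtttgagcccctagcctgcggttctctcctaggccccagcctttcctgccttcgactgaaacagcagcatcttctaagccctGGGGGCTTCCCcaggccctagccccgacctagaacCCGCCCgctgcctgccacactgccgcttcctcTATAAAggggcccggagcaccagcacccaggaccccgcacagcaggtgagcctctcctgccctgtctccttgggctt
Ltb (chr20:3634005-3634304, minus strand): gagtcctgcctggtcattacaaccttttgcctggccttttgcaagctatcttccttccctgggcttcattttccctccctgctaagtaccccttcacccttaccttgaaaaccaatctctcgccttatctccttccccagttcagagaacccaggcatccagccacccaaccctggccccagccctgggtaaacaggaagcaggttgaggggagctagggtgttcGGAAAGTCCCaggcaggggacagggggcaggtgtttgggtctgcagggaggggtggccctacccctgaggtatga
The capitals are an ETS match at position -77 in Tnfrsf1a and 2 GC boxes at -106 and -19 in Ltbr, counted from the start site. In Lta they are overlapping NF-kB matches at -94 and -93, a GC box at -59 and a TATA box at -27. The capitals in Ltb are 1 NF-kB match at -25. A promoter was found for 19 of the 27 members. The NF-kB consensus was in 4 of these (Lta, Ltb, Fas and Tnfrsf8) and in 7.51% of all 33469 promoters of the table, and the GC box was in 11 of 19 against 33.1%. The ETS motif was in 3 of 19 against 8.75%, and the TATA box in 4 of 19 against 14.2%. These counts describe letters in a window and were not tested.

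Of the 27 members, 16 had a mean of at least log2 4 over the 42 arrays and 11 were dim, that is, below that level. Values are GC-RMA log2 signals, and the signal of one probe set is not a measure of abundance against another. The ligands of highest mean signal were Tnfsf13, a B cell survival factor also known as APRIL (mean 10.1, range 9.07 to 10.6), Ltb (mean 8.47, range 7.64 to 9.30) and Tnfsf12, also known as TWEAK (mean 6.40, range 5.36 to 7.29). Among receptors these were Tnfrsf14, also known as HVEM and a receptor for LIGHT and lymphotoxin alpha (mean 11.3, range 10.3 to 12.5), Tnfrsf26, grouped here with soluble and decoy receptors (mean 10.1, range 9.05 to 10.8), and Tnfrsf1b, the second TNF receptor (mean 7.83, range 7.05 to 8.56). Dim members were Lta, Tnfsf4, Tnfsf9, Tnfsf11, Tnfrsf4, Tnfrsf9, Tnfrsf11a, Tnfrsf11b, Tnfrsf12a, Tnfrsf17 and Tnfrsf19. Tnfrsf19 stayed between 2.11 and 2.20 and Tnfsf11, known as RANKL, between 2.29 and 2.36 on all 42 arrays. Tnfrsf17, the plasma cell receptor BCMA, had 1 array at 5.65, in a reperfused-MCAO rat with tPA, and the next highest of the 42 was 3.56.

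**Figure D1:**
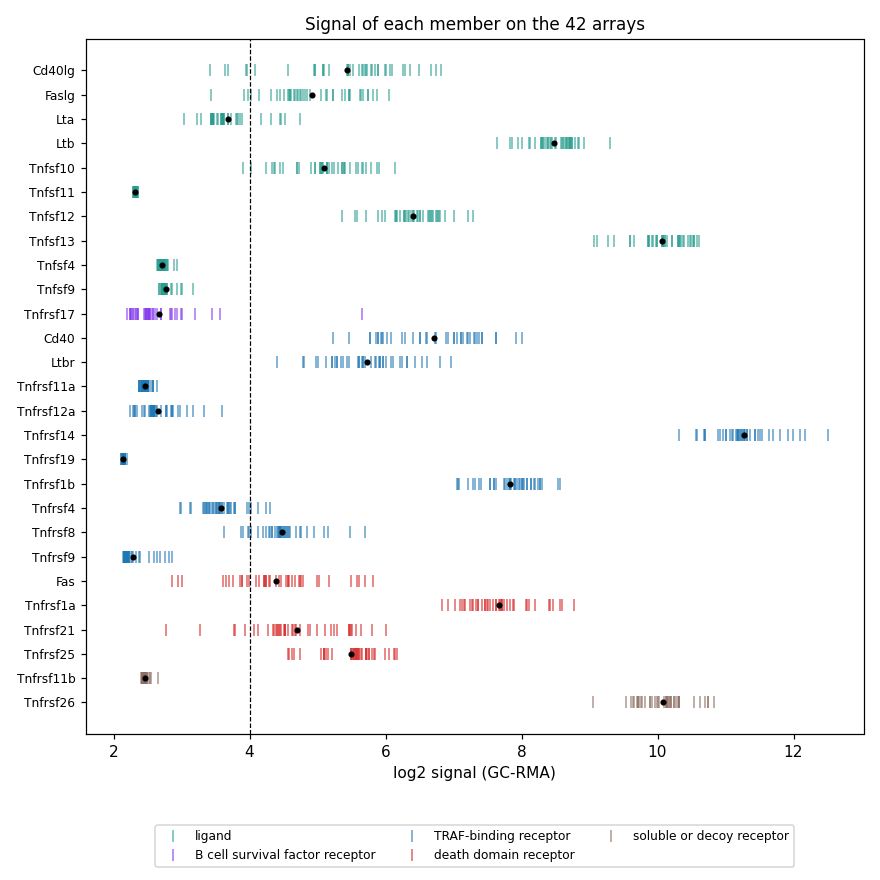
GC-RMA log2 signal (horizontal axis) of the 27 TNF superfamily members (rows), with 1 tick per array for 42 arrays, a black point for the mean, a color for the kind of member and a dashed line at log2 4. The 11 dim members have their means left of the line and mostly narrow ranges, and Cd40lg spans 3.41 to 6.82.

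Markers fitted whole blood: the measured T cell, B cell, NK, neutrophil, monocyte, platelet and erythroid markers were not dim, apart from Cd28, and Gfap, Myh6, Alb and Ins1, genes of other tissues, all were. The group given tPA without MCAO stood apart. Its hybridization controls, bacterial transcripts added in a fixed amount, had a mean of 9.72 to 11.7 per array against 11.4 to 12.4 in the other groups, and its erythroid markers were at 10.8 to 12.7 against 12.9 to 13.4 with anesthesia. In the text a member is called for a pair of groups where limma gave p of at most 0.01 and a fold of at least 1.2, the thresholds of the study. Adjusted p values are from limma with Benjamini-Hochberg adjustment over 31042 probe sets, and exact p values are two-sided permutation tests over all 924 divisions of 12 rats, which cannot go below 0.00216.

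In untreated reperfused-MCAO the receptors Tnfrsf1a, Tnfrsf1b, Ltbr and Tnfrsf4 were called higher than with anesthesia and the death ligand Tnfsf10 lower, and in untreated permanent-MCAO Tnfrsf1a was called higher. After adjustment Tnfrsf1a passed in reperfused-MCAO and no member in permanent-MCAO. Against anesthesia, 4 members were called higher and 1 lower in reperfused-MCAO, and 1 higher in permanent-MCAO. Over all probe sets 6% were called in reperfused-MCAO (4.09% higher, 1.91% lower) and 2.78% in permanent-MCAO (1.77% higher), against 5 and 1 of 27 members. Of the 16 members that were not dim, 4 were called in reperfused-MCAO, where 13% of all probe sets that were not dim were called. The 2 comparisons share the 6 anesthesia rats. A higher signal in whole blood can come from more cells of a type or more RNA per cell, and the 2 cannot be told apart here.

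Tnfrsf1a, which carries the death domain and is found on most nucleated cells, had the largest of the called differences from anesthesia. Its lowest, median and highest signals were 7.09, 7.21 and 7.62 with anesthesia, 7.68, 8.26 and 8.77 with reperfused and 7.66, 7.81 and 8.56 with permanent MCAO. All 12 untreated MCAO rats lay above all 6 anesthesia rats. Naive rats, at 6.83 to 7.87, overlapped both untreated MCAO groups. The difference was 0.96 log2 (1.94-fold, SE 0.175, limma adjusted p = 0.0227, exact p = 0.00216) in reperfused-MCAO. In permanent-MCAO it was 0.73 log2 (1.66-fold, SE 0.169, limma adjusted p = 0.133, exact p = 0.00216). Groups did not overlap for 2.63% of all probe sets in the first comparison and 0.809% in the second. Leaving out any 1 array kept both of these calls, with differences of 0.85 to 1.07 and 0.62 to 0.81 log2. With 1 fit over all 42 arrays in place of the 12, 8 members were called in reperfused-MCAO and 3 in permanent-MCAO. The share of all probe sets called in that fit is not given here, so these counts cannot be read against it.

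Ltbr, which stromal and myeloid cells carry, moved in the same direction as its neighbor Tnfrsf1a. Its lowest, median and highest signals were 4.78, 5.27 and 6.10 with anesthesia, 5.66, 6.26 and 6.62 with reperfused and 5.66, 5.94 and 6.96 with permanent MCAO. Each of these MCAO rats lay above 5 of the 6 anesthesia rats, and the groups overlapped through the highest anesthesia rat. The difference in reperfused-MCAO was 0.84 log2 (SE 0.228, limma adjusted p = 0.0919, exact p = 0.0108) and was called. In permanent-MCAO it was 0.71 log2 (SE 0.252, limma adjusted p = 0.431, exact p = 0.0216) and was not.

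Tnfrsf1b, the TNF receptor of leukocytes without a death domain, had signals of 7.06, 7.69 and 8.0 (lowest, median, highest) with anesthesia against 7.75, 8.22 and 8.54 in reperfused-MCAO. The groups overlapped at their edges, and the difference of 0.57 log2 was called (SE 0.170, limma adjusted p = 0.126, exact p = 0.00649) but remained called in only 5 of the 12 fits that each left out 1 array. In permanent-MCAO the range of 7.38 to 8.56 overlapped the anesthesia range, with a difference of 0.23 log2. Tnfrsf4, the T cell costimulatory receptor OX40, was dim, at 2.99 to 3.52 with anesthesia and 3.59 to 4.12 in reperfused-MCAO, without overlap (0.51 log2, limma adjusted p = 0.0717, exact p = 0.00216). Naive rats, at 3.34 to 3.77, overlapped the reperfused range. With the control level as a covariate the Tnfrsf4 call was lost (0.37 log2, limma adjusted p = 0.226). Its difference in permanent-MCAO was 0.09 log2. A further death domain receptor, Tnfrsf21, is described with tPA below because its probe sets differed.

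Tnfsf10, the death ligand TRAIL, had negative differences in both untreated MCAO groups. Its signals were 5.03, 5.19 and 6.14 with anesthesia, 4.33, 4.59 and 5.06 with reperfused and 3.90, 4.70 and 5.13 with permanent MCAO (lowest, median, highest). Overlap with the anesthesia rats was small in each case. The difference of -0.72 log2 in reperfused-MCAO was called (SE 0.192, limma adjusted p = 0.0899, exact p = 0.00433). With the control level of each array as a covariate it was -0.70 log2 and no longer called (limma adjusted p = 0.197). The difference of -0.71 log2 in permanent-MCAO was not called (SE 0.261, limma adjusted p = 0.456, exact p = 0.0216).

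Cd40, the costimulatory receptor of B cells and monocytes, had similar differences and a wider spread. Its lowest, median and highest signals were 6.51, 7.18 and 7.92 with anesthesia, 5.77, 6.29 and 7.20 with reperfused and 5.89, 6.18 and 7.30 with permanent occlusion. The groups overlapped and neither difference was called, at -0.80 log2 (SE 0.333, limma adjusted p = 0.274) and -0.85 log2 (SE 0.297, limma adjusted p = 0.416). Faslg, the death ligand of cytotoxic T cells and NK cells, was at 3.92, 4.47 and 5.82 with anesthesia and 4.76, 5.51 and 5.87 in reperfused-MCAO. The highest anesthesia rat lay within the MCAO range, and the difference of 0.81 log2 was not called (SE 0.303, limma adjusted p = 0.231, exact p = 0.0303). Its receptor Fas differed by 0.62 log2 in reperfused-MCAO and 0.12 in permanent-MCAO, neither called.

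**Figure D2:**
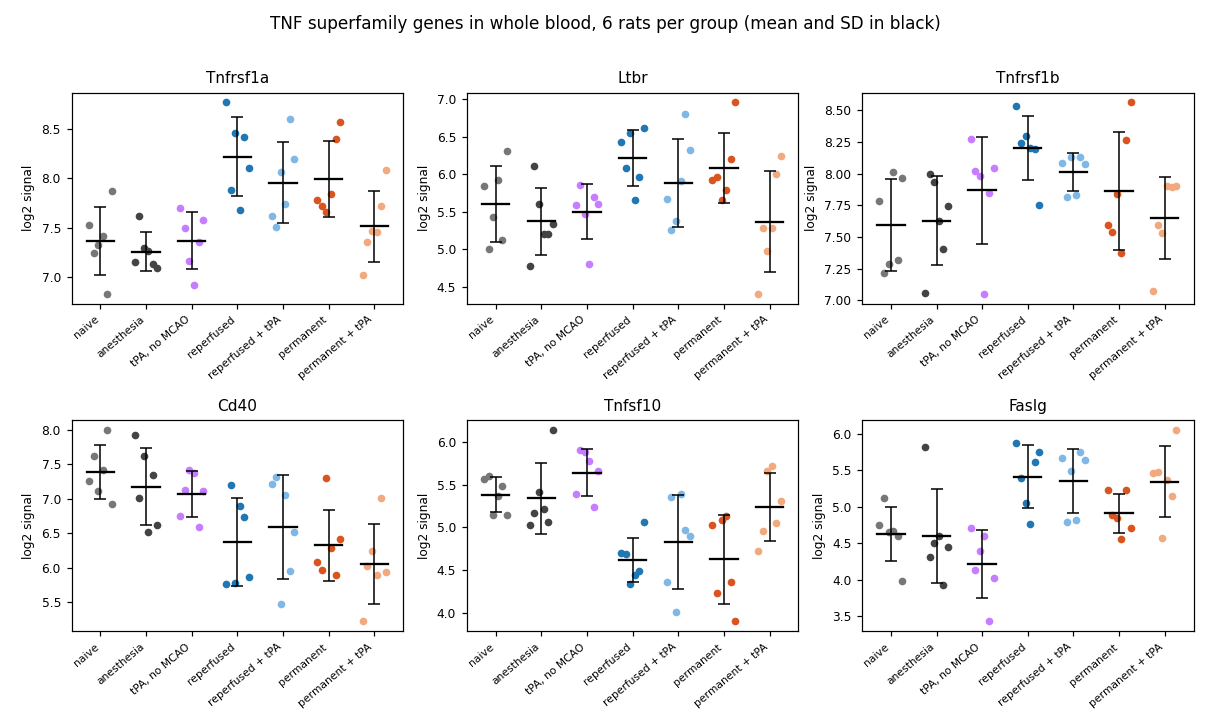
GC-RMA log2 signal (vertical axes, scaled to each gene) of Tnfrsf1a, Ltbr, Tnfrsf1b, Cd40, Tnfsf10 and Faslg in 7 groups of 6 rats, with 1 point per array and black bars for the mean and SD. All reperfused and permanent MCAO rats without tPA lie above the anesthesia rats for Tnfrsf1a, and Tnfsf10 and Cd40 sit lower in these groups.

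Marker lists moved in the same comparisons. Monocyte markers averaged 9.32 to 10.2 in reperfused-MCAO and 9.37 to 9.89 in permanent-MCAO against 8.76 to 9.20 with anesthesia, and 5 and 3 of 8 were called higher. NK and cytotoxic markers averaged 8.47 to 9.48 in reperfused-MCAO against 7.86 to 8.63, with 4 of 7 called higher. Neutrophil markers had 2 of 6 called higher in each comparison, and no T cell or B cell marker was called. In reperfused-MCAO 1 of 7 platelet markers was called higher and 1 of 8 erythroid markers lower. Their part in the differences of the members was not tested.

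With all 42 arrays in the model of the study, which has terms for tPA, MCAO, anesthesia and tPA by MCAO, 10 of 27 members were called for the stroke effect, 3 higher and 7 lower. Calls in this model needed p of at most 0.05 and a fold of at least 1.2, which 15.4% of all probe sets met (6.02% higher, 9.39% lower). Among members that were not dim, 9 of 16 were called against 31.1% of such probe sets. This effect averages the MCAO differences of untreated and of treated rats, so the group given tPA without MCAO, which stood apart, was one of its controls.

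Of the 10, 5 members kept their stroke call in the 4 untreated groups alone. In all rats Tnfrsf1a was higher by 0.61 log2 (SE 0.128, limma adjusted p = 0.00288), Faslg by 0.85 (SE 0.163, limma adjusted p = 0.00153) and Ltbr by 0.45 (SE 0.178, limma adjusted p = 0.116). Cd40 was lower, at -0.78 log2 (SE 0.196, limma adjusted p = 0.0101), as was Tnfsf10, at -0.66 (SE 0.140, limma adjusted p = 0.00295). For Faslg the control rats given tPA ranged from 3.43 to 4.71, whereas the MCAO groups with tPA ranged from 4.79 to 5.75 (reperfused) and from 4.57 to 6.06 (permanent). NK and cytotoxic markers were called higher in 5 of 7 genes in the same model. Platelet markers were called higher in 6 of 7, neutrophil in 4 of 6, erythroid in 4 of 8 and monocyte in 3 of 8. B cell markers were called lower in 2 of 5, and T cell markers are given below. The part of the marker lists in these differences of the members was not tested.

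The other 5 members lost their stroke call without the tPA-treated groups. Tnfrsf14 was lower, at -0.59 log2 (SE 0.107, limma adjusted p = 0.000828), as were Lta at -0.47 (limma adjusted p = 0.00144), Tnfrsf26 at -0.36 (limma adjusted p = 0.0214) and Tnfrsf25, a death domain receptor of T cells, at -0.45 (limma adjusted p = 0.0232). Cd40lg, the ligand that activated T cells present to Cd40, was lower, at -0.66 (limma adjusted p = 0.134). In the 4 untreated groups the differences of these 5 were -0.21, -0.16, -0.03, -0.28 and -0.33 log2, in the same order. T cell markers were called lower in 9 of 10 genes for the stroke effect in all rats, at p of at most 0.05. No T cell marker was called in untreated MCAO against anesthesia, but those calls needed p of at most 0.01. The 2 counts therefore cannot be compared. The median difference of the 10 markers was -0.49 log2 for the stroke effect in all rats. Against anesthesia it was -0.14 log2 in untreated reperfused-MCAO, with 2 of 10 positive, and -0.10 in untreated permanent-MCAO, with 0 of 10 positive. Tnfrsf9, which is dim, was lower, at -0.26 log2, and passed by its limma adjusted p of 0.00517, although its fold was too small for a call.

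Among rats without MCAO, 5 members were called higher with tPA than with anesthesia and none lower, against 13.7% of all probe sets called in either direction and 9.15% called higher. Of members that were not dim, 4 of 16 were called, all higher. Among all probe sets that were not dim, 28.7% were called and 18.8% were called higher. The share of members, 25%, lay between these shares. The groups did not overlap for Tnfrsf14, Ltb and Cd40lg, as for 6.18% of all probe sets.

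Tnfrsf14 had signals of 11.1, 11.2 and 11.4 (lowest, median, highest) with anesthesia and 11.6, 12 and 12.5 with tPA. Every treated rat lay above every anesthesia rat, with a difference of 0.80 log2 (1.74-fold, SE 0.128, limma adjusted p = 0.00772, exact p = 0.00216). Ltb was at 8.01, 8.26 and 8.63 with anesthesia and 8.65, 8.78 and 9.30 with tPA, and Cd40lg at 4.96, 5.45 and 5.69 against 5.89, 6.19 and 6.67. These lymphocyte ligands were higher in all 6 treated rats than in every anesthesia rat, by 0.58 log2 (SE 0.126, limma adjusted p = 0.0183) and 0.84 log2 (SE 0.162, limma adjusted p = 0.0135). The separation did not hold against naive rats, which overlapped the treated rats for each of these genes. Naive signals were 11.2 to 11.9 for Tnfrsf14, 8.30 to 8.74 for Ltb and 5.08 to 6.74 for Cd40lg. Tnfrsf26 overlapped between groups, at 9.66 to 10.5 against 10.3 to 10.8 (0.63 log2, SE 0.163, limma adjusted p = 0.0326), and Lta, dim, at 3.45 to 4.16 against 3.68 to 4.75 (0.61 log2, SE 0.194, limma adjusted p = 0.064). The Lta call remained in 3 of the 12 fits that each left out 1 array.

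These differences lay in the group with the low control signal. Its control level was 9.72 to 11.7 per array against 11.8 to 12.4 with anesthesia, without overlap. A fit with this level as a covariate can therefore hardly separate it from tPA. With the control level of each array as a covariate 1 of the 5 calls remained, that of Tnfrsf14 at 0.42 log2 (limma adjusted p = 0.237), and the differences of the other members were 0.31 for Ltb, 0.76 for Cd40lg, 0.33 for Tnfrsf26 and 0.27 for Lta. Without the treated rat of lowest control signal, at 9.72, Tnfrsf14 differed by 0.71 log2 (limma adjusted p = 0.00817), Ltb by 0.49, Cd40lg by 0.81 and Tnfrsf26 by 0.58, all called, while Lta (0.57) was not. T cell markers averaged 9.87 to 10.6 with tPA against 9.11 to 9.65, with 9 of 10 called higher, and the lower erythroid level is given above. Monocyte markers averaged 9.05 to 9.87 against 8.76 to 9.20, with 3 of 8 called higher, and platelet markers 9.61 to 10.7 against 10.2 to 11, with 4 of 7 called lower. The part of these in the differences of the members was not tested.

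**Figure D3:**
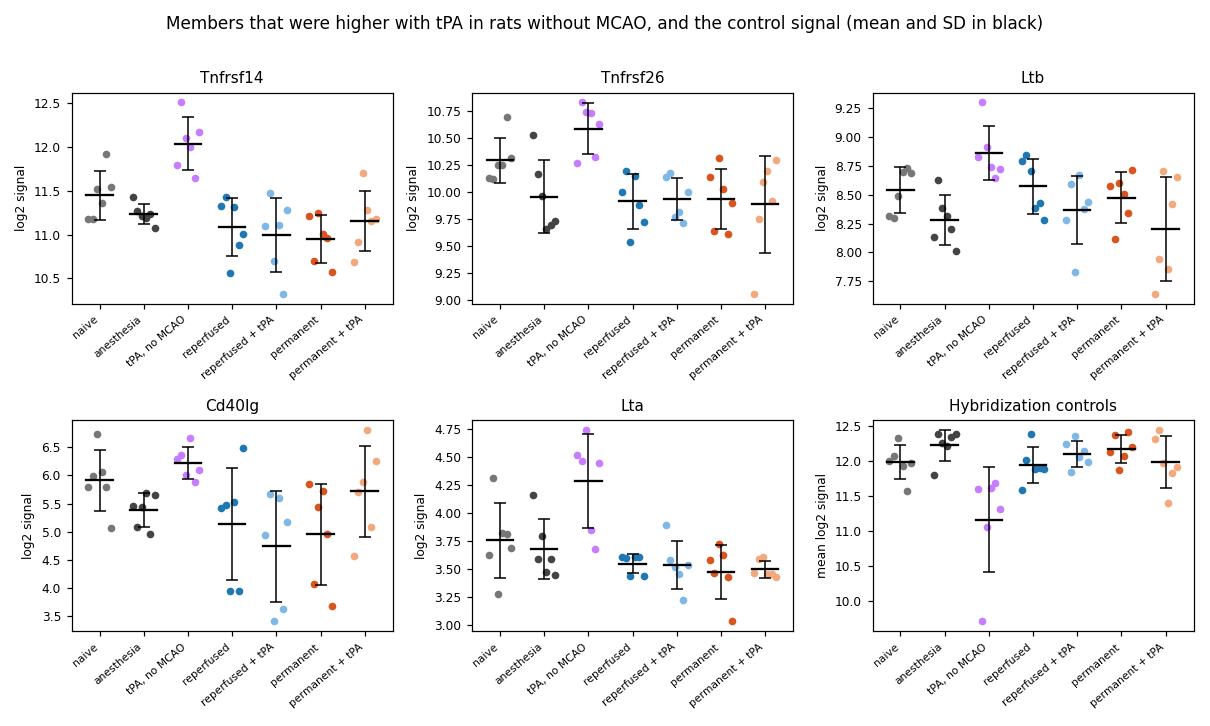
GC-RMA log2 signal (vertical axes, scaled to each panel) of Tnfrsf14, Tnfrsf26, Ltb, Cd40lg and Lta, and the mean signal of 14 hybridization control probe sets, in 7 groups of 6 rats with 1 point per array and black bars for the mean and SD. The group given tPA without MCAO is highest for the 5 genes and has the lowest control signal, 9.72 to 11.7.

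Few members were called with tPA in rats with MCAO. No member was called with tPA in reperfused-MCAO by limma or by the methods' test, where 0.722% of all probe sets were called by limma, and 1 member reached p of 0.05 or less, as did 7.99% of all probe sets (smallest limma adjusted p of a member = 0.542). In permanent-MCAO 1 member was called, Tnfrsf21, higher, against 0.322% of all probe sets (0.18% higher). The difference between the tPA effects in the 2 kinds of MCAO was called for no member by either test, against 0.296% of all probe sets by limma, and 1 member reached p of 0.05 or less against 2.52%.

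Tnfrsf21, the death domain receptor DR6, was measured by 2 probe sets that gave different results. Its brighter probe set had signals of 3.27, 4.27 and 4.52 in permanent-MCAO without tPA and 4.74, 4.95 and 5.46 with tPA (lowest, median, highest). The groups did not overlap, as for 0.0515% of all probe sets, and the difference was 0.93 log2 (1.91-fold, SE 0.220, limma adjusted p = 1, exact p = 0.00216). In reperfused-MCAO it differed by -0.29 log2 with tPA, and the difference between the 2 tPA effects was 1.23 log2 (SE 0.485, limma adjusted p = 0.978), not called. The other probe set differed by 0.23 log2 with tPA in permanent-MCAO (SE 0.234, limma adjusted p = 1, exact p = 0.374), with overlap.

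For reperfused-MCAO against anesthesia the result of the probe sets was the other way round. The second probe set was at 4.61, 4.79 and 5.21 against 4.19, 4.27 and 4.44 with anesthesia, without overlap, and was called at 0.58 log2 (SE 0.108, limma adjusted p = 0.0242, exact p = 0.00216). Naive rats, at 3.98 to 4.73 on this probe set, overlapped the reperfused range. The brighter probe set had the larger difference of 0.89 log2 but was not called, with anesthesia rats spread from 2.77 to 5.47 (SE 0.403, limma adjusted p = 0.308). Across 42 arrays the signals of the 2 probe sets had r = 0.46, as a description.

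**Figure D4:**
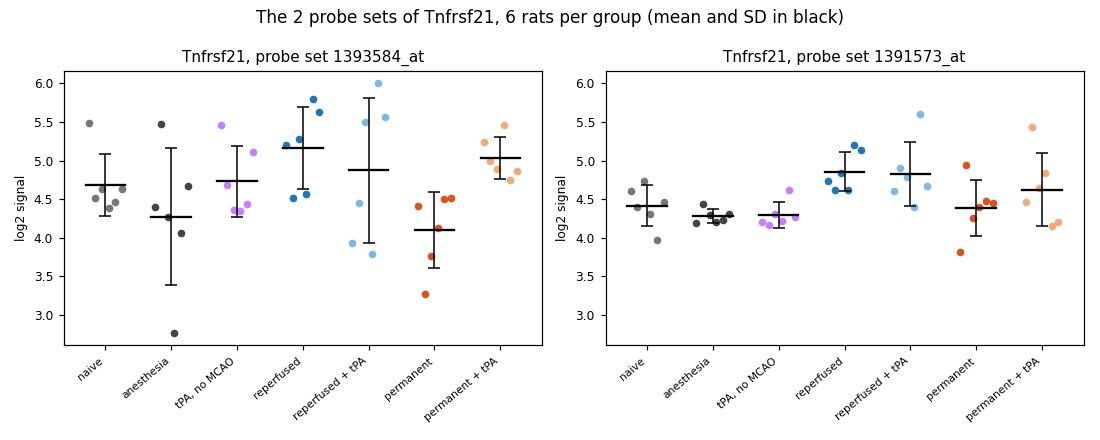
GC-RMA log2 signal (vertical axes, same scale) of both probe sets of Tnfrsf21 in 7 groups of 6 rats, with 1 point per array and black bars for the mean and SD. With tPA in permanent MCAO the left probe set separates the groups (4.74 to 5.46 against 3.27 to 4.52) and the right one does not.

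For Tnfrsf1a, Ltbr and Tnfsf10 the difference with tPA ran opposite to the difference between untreated MCAO and anesthesia, without a call. These 3 were chosen after their values were seen, and the untreated MCAO rats are in both differences, so the signs are not independent. In permanent-MCAO the signal with tPA was 7.02, 7.46 and 8.09 for Tnfrsf1a, a difference of -0.48 log2 from untreated rats (limma adjusted p = 1, exact p = 0.0541). Ltbr was at 4.40, 5.29 and 6.24, a difference of -0.72 log2 (limma adjusted p = 1, exact p = 0.0563), and Tnfsf10 at 4.72, 5.18 and 5.72, a difference of 0.61 log2 (limma adjusted p = 1, exact p = 0.0519). The treated and untreated rats overlapped for all 3 genes. In reperfused-MCAO the same differences were -0.26, -0.33 and 0.21 log2. Faslg and Cd40 did not run opposite in permanent-MCAO, where their differences with tPA were 0.44 and -0.27 log2, the sign they had without tPA against anesthesia. In reperfused-MCAO both ran opposite, with means of 5.36 with tPA against 5.41 without for Faslg and 6.59 against 6.37 for Cd40. Tnfrsf1b ran opposite in both kinds of MCAO, with means of 8.01 against 8.20 (reperfused) and 7.65 against 7.86 (permanent).

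For the tPA effect averaged over rats without and with MCAO, 4 members were called higher and none lower, against 12% of all probe sets called and 6.91% called higher. Of members that were not dim, 3 of 16 were called, all higher. Among all probe sets that were not dim, 24% were called and 13.1% were called higher. The 4 called members were Tnfrsf14 (0.43 log2, SE 0.107, limma adjusted p = 0.0186), Lta (0.31, SE 0.0890, limma adjusted p = 0.0411), Tnfrsf26 (0.31, SE 0.10, limma adjusted p = 0.0666) and Tnfsf10 (0.36, SE 0.140, limma adjusted p = 0.140). In the 4 MCAO groups alone the call of Tnfsf10 remained (0.41 log2), while those of Tnfrsf14 (0.06), Lta (0.0034) and Tnfrsf26, which turned to -0.014, were lost, and no member was called once the control level entered as a covariate. For this effect 9 of 10 T cell and 2 of 8 monocyte markers were called higher, and 5 of 8 erythroid and 2 of 7 platelet markers lower. The tPA by stroke interaction, the tPA effect with MCAO minus that without, was called lower for 5 members against 21% of all probe sets called and 14.4% called lower. Of members that were not dim, 3 of 16 were called lower, against 27.7% of all probe sets that were not dim. Ltb differed by -0.82 log2 (SE 0.192, limma adjusted p = 0.0084), Tnfrsf14 by -0.75 (SE 0.213, limma adjusted p = 0.0243), Tnfrsf26 by -0.65 (SE 0.200, limma adjusted p = 0.0366), Lta by -0.60 (SE 0.178, limma adjusted p = 0.0287) and Tnfrsf4 by -0.43 (SE 0.199, limma adjusted p = 0.146). For Ltb the tPA differences were 0.58 without MCAO, -0.21 with reperfusion and -0.27 with permanent occlusion, for Tnfrsf14 they were 0.80, -0.09 and 0.20 log2, and for Lta 0.61, -0.02 and 0.02 log2. The Ltb call was the one that remained with the control level as a covariate, and the Tnfrsf4 call remained in 32 of the 42 fits that each left out 1 array. For the interaction 8 of 10 T cell and 5 of 8 monocyte markers were called lower and 7 of 8 erythroid markers higher, and the part of the marker lists in these differences of the members was not tested.

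**Figure D5:**
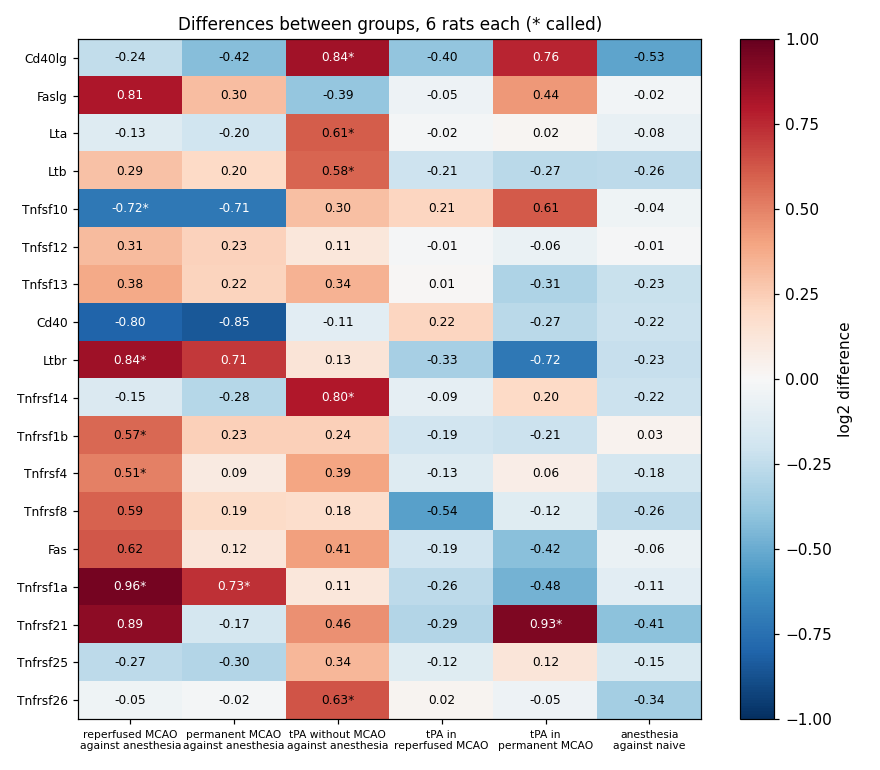
Log2 differences (color and printed value) of the 16 members that were not dim and of Lta and Tnfrsf4 (rows) in 6 pairs of groups of 6 rats (columns), with a star where limma gave p of at most 0.01 and a fold of at least 1.2. Stars lie in the columns of untreated MCAO and of tPA without MCAO, apart from Tnfrsf21 at 0.93 with tPA in permanent MCAO.

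Anesthesia alone gave no called member against naive rats by limma or by the methods' test, with 0.821% of all probe sets called by limma, and 1 member, Ltb, reached p of 0.05 or less against 4.89% of all probe sets (-0.26 log2, limma adjusted p = 0.94). Of the 16 members that were not dim 15 had a lower mean with anesthesia (median difference -0.22 log2, against -0.08 over all probe sets that were not dim). All 16 were measured on the same 12 rats, so they are not independent. The share of all such probe sets with a lower mean is not given here, so this count cannot be read against it. The members that were not dim and were called in none of the 10 comparisons were Tnfsf13, Tnfsf12, Tnfrsf8 and Fas, and of the dim members Lta and Tnfrsf4 alone were called. Without replicate 4 of the rats given tPA without MCAO, Tnfsf13 was called for tPA without MCAO, at 0.57 in place of 0.34 log2 (limma adjusted p = 0.0359), and for the interaction, at -0.72 in place of -0.49 log2 (limma adjusted p = 0.0541). That rat had the lowest Tnfsf13 signal of its group, so leaving it out had to raise the difference. These 2 calls are therefore not separate results. The other Tnfsf13 probe set differed by 0.23 log2 with tPA without MCAO (limma adjusted p = 0.633) and was not called. On the brighter probe set Tnfsf13 differed by 0.38 log2 in reperfused-MCAO against anesthesia (limma adjusted p = 0.253, exact p = 0.0238). Tnfrsf8, known as CD30, reached its highest signals in reperfused-MCAO, 3.97 to 5.70 against 3.62 to 4.50 with anesthesia.

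Adaptors and regulators downstream of the receptors were examined as a list of 48 genes that also held Tnf and other receptors of the family, of which 40 were measured and 36 were not dim. In untreated reperfused-MCAO against anesthesia 3 were called higher and 1 lower, 11.1% of those not dim against 13% of all probe sets that were not dim. Cyld, a deubiquitinase that limits NF-kB signaling, was higher by 0.89 log2 (limma adjusted p = 0.0511), Ripk3, a kinase of necroptosis, by 0.77 (limma adjusted p = 0.12) and Cflar, an inhibitor of caspase-8, by 0.31 (limma adjusted p = 0.0976). Tank, a TRAF-binding regulator, was lower, at -0.67 log2 (limma adjusted p = 0.09). In permanent-MCAO Cyld (0.52, limma adjusted p = 0.176) and Tnf itself (0.86, limma adjusted p = 0.263) were called higher, 5.56% of those not dim against 6.07% of all such probe sets. For the stroke effect in all rats 2 of the 40 were called higher and 6 lower, 22.2% of those not dim against 31.1%. Among them were Tank (-0.63, limma adjusted p = 0.0075), the linear ubiquitin ligase subunit Rbck1 (-0.29, limma adjusted p = 0.0126), the kinase Map3k14 (-0.38, limma adjusted p = 0.0182) and Cyld (0.38, limma adjusted p = 0.0611).

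With tPA in rats without MCAO 6 of the 40 were called higher and none lower. These were 16.7% of those not dim, against 18.8% called higher among all probe sets that were not dim. They included Ripk2 (0.30, limma adjusted p = 0.00964), Tradd, the adaptor of Tnfrsf1a (0.58, limma adjusted p = 0.0284), Traf3 (0.65, limma adjusted p = 0.036) and Cyld (0.58, limma adjusted p = 0.0409). In reperfused-MCAO with tPA 1 of 40 was called, Tradd, lower at -0.37 log2 (limma adjusted p = 0.542), and in permanent-MCAO none was called by limma, with 2 at p of 0.05 or less. For the averaged tPA effect 4 were called higher, 11.1% of those not dim against 13.1% of all such probe sets. They were Traf3 (0.34, limma adjusted p = 0.0925), Map3k14 (0.29, limma adjusted p = 0.0943), Traf4 (0.40, limma adjusted p = 0.0975) and Map3k7 (0.29, limma adjusted p = 0.101). The interaction was called lower for 14 of 40, 38.9% of those not dim against 27.7%, a difference in shares that was not tested. Those of smallest p were Tradd (-0.81, limma adjusted p = 0.0167), Cflar (-0.59, limma adjusted p = 0.0275), Rbck1 (-0.51, limma adjusted p = 0.0294) and Map3k14 (-0.66, limma adjusted p = 0.0383).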

How the data were processed

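Whole blood of 42 rats, 1 array per rat (Affymetrix Rat Genome 230 2.0), entered 7 groups of 6 as the labels give them. The deposited values are log2 signals that the authors made with GC-RMA in Partek. Quantile normalization in GC-RMA makes signals relative within an array. Depth does not apply to arrays, and 6 rats per group limit the precision. The 57 control probe sets were set aside, 14 of them kept as a control level per array, and 31042 probe sets were fitted in limma 3.58.1 (R 4.3.3, statmod 1.5.0). A probe set was dim below a mean of log2 4.

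The 42 arrays were fitted with terms for tPA, MCAO, anesthesia (all but naive) and tPA by MCAO, and pairs of groups with their 12 arrays. Calls used p of at most 0.05 or 0.01 and a fold of at least 1.2. Fits were tested on simulated data. Of the probe sets 20826 had 1 gene symbol, updated through the gene table of GRCr8. The members and the lists of markers, adaptors and motifs were chosen with earlier results of these data known. Named are members called in any comparison, the 3 ligands and 3 receptors of highest signal, dim members by name unless called, and, of the 4 adaptors of smallest p per comparison, those called. Other genes and probe sets named, such as the second probe set of Tnfrsf21, were chosen after their values were seen. Alternatives were the methods' test (no shared variance), array weights, median or quantile scaling, no dim probe sets, the control level as a covariate, a replicate block, other codings and groups, 1 fit over 42 arrays, the second probe set and leaving out each array. Plots used matplotlib 3.10.9 under Python 3.11.15.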

Additional observations from a re-analysis of the deposited data

Results flagged for a closer look

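Of 112 groups of values, 16 members in 7 groups of 6 rats, 10 had 1 rat far from the others, where about 1 in 20 groups is marked by chance. The 16 members were measured on the same rats, so these groups are not independent and the 10 cannot be judged against that rate. In the group given tPA without MCAO the same rat, replicate 4, was lowest for Tnfsf13 (9.07, next 10.3), Tnfsf12 (5.36, next 6.40), Tnfrsf1b (7.05, next 7.85) and Ltbr (4.80, next 5.47). Anesthesia replicate 1 was highest for Faslg (5.82, next 4.60) and lowest for Tnfrsf8 (3.62, next 4.28), and anesthesia replicate 6 was highest for Tnfsf10 (6.14, next 5.41). The naive group had a high rat for Tnfrsf21 (5.49, next 4.64) and another for Tnfrsf26 (10.7, next 10.3), and permanent-MCAO had one for Cd40 (7.30, next 6.41).

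The tPA difference with MCAO and without MCAO itself differed, by the interaction term of limma with adjusted p of at most 0.05 and a fold of at least 1.2, for Ltb (-0.82 log2), Tnfrsf14 (-0.75), Tnfrsf26 (-0.65) and Lta (-0.60). Without the fold limit, 5 of 27 members and 9.47% of all probe sets had a limma adjusted p of at most 0.05 for this term. Ltb, Tnfrsf14, Tnfrsf26 and Lta each had the highest group mean in rats given tPA without MCAO, the group of lowest control signal. Selection by a negative interaction favors a high mean in that group, so this is not a separate result. The part of the control signal was not tested beyond the fits with it as a covariate.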

How the results depend on the processing

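Among the members called in each comparison, the stroke effect (10 in all rats) stayed between 8 and 11 under every alternative, though other members made up part of the 8 in the 4 untreated groups. With the control level as a covariate the count fell to 0 from 4 for the averaged tPA effect, 1 from 5 for the interaction, 1 from 5 for tPA without MCAO and 3 from 5 for reperfused-MCAO against anesthesia, and was 4 in place of 1 for permanent-MCAO. Between tPA without MCAO and anesthesia the control levels did not overlap, so there the fit can hardly separate them from tPA. Without dim probe sets the interaction had 3 and permanent-MCAO against anesthesia 2. With the tPA group without MCAO coded as not anesthetized the interaction had 3. With 1 fit over 42 arrays reperfused-MCAO had 8, permanent-MCAO 3 and tPA in permanent-MCAO 0, as it also had with the second probe set of Tnfrsf21. Leaving out both arrays 2 and 4 of the group given tPA without MCAO, chosen after seeing the data, gave 2 for the averaged tPA effect. In the 4 MCAO groups alone the tPA effect on Tnfrsf26 reversed, at -0.0143 log2. The shares of all probe sets called under these alternatives are not given here, and the causes were not tested.

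Leaving out each array in turn gave 3 to 6 members for the averaged tPA effect, 10 to 11 for stroke, 4 to 9 for the interaction (9 without replicate 4 of tPA without MCAO), 4 to 6 for reperfused-MCAO and 1 to 2 for permanent-MCAO against anesthesia (2 without anesthesia replicate 1, 2 or 4 or permanent-MCAO replicate 3). It gave 4 to 6 for tPA without MCAO and 1 to 2 for tPA in permanent-MCAO (2 without treated replicate 3). It gave 0 to 1 for tPA in reperfused-MCAO (1 without untreated replicate 6), for anesthesia against naive (1 without anesthesia replicate 1 or naive replicate 6) and for the difference of the tPA effects (1 without reperfused treated replicate 5). The shares of all probe sets called in these fits are not given here, so the counts cannot be read against them.

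Replicate numbers did not pair the samples: deviations of same-numbered rats correlated at -0.38 to 0.36. With the replicate number as a block the count was 3 for tPA in permanent-MCAO and 0 for permanent-MCAO against anesthesia, where the Tnfrsf1a call was lost, and no other count moved by over 1.5 times. The shares of all probe sets called with the block are not given here either.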
